A study of Homo sapiens with 6 samples.

Results

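Caveolae are small, flask-shaped pits of the plasma membrane, and flotillins form separate flat or budding membrane domains. To describe how their genes were expressed in kidney tubule cells with and without an ANXA2 knockdown label, 10 genes were selected by symbol. They were CAV1, CAV2, PTRF, SDPR, PRKCDBP, EHD1, EHD2, FLOT1, FLOT2 and PACSIN2. PTRF, SDPR and PRKCDBP are the older symbols of CAVIN1, CAVIN2 and CAVIN3. All 10 were found among the 26899 genes of the counts table, and all 10 passed the low-count filter that left 15299 genes for testing. The genes are defined by their symbols and by no threshold on a measured value, but they were proposed with earlier results of these data known.

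The cells were HK-2, an established human kidney proximal tubule line transformed with human papillomavirus, cultured with fetal bovine serum and transfected with plasmids in lipid reagent. The series held 3 libraries of polyadenylated RNA titled wild type and described as shCtrl, and 3 titled ANXA2 knockdown and described as shANXA2. Whether the first group carried a control hairpin is not settled by the labels, and no hairpin sequence, selection or number of clones was found in the labels. Nothing in the labels says that replicates were separate cultures, so p-values rest on the spread between these libraries, which may be technical. The edgeR test used below estimates that spread for each gene partly from other genes. Total reads ranged from 24231267 to 34561675 per library.

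In a knockdown design the targeted gene checks the labels. ANXA2, which encodes a calcium-dependent membrane-binding protein found at cholesterol-rich membrane, had FPKM values of 827, 743 and 841 in the control libraries and 762, 775 and 763 in the knockdown libraries. FPKM corrects a count for gene length and sequencing depth. The groups overlapped, and the edgeR quasi-likelihood estimate was a log2 fold change of -0.05 (SE 0.075, Benjamini-Hochberg adjusted p = 0.848), a change of -3.68% with a 95% interval from -14.3% to 8.29%. The ANXA2 transcript was not detectably lower. Every comparison below is therefore between the libraries labelled knockdown and those labelled control, and no direction stands for a measured loss of ANXA2. In bulk RNA, fewer cells expressing a gene and less RNA per cell cannot be told apart.

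The identity of the cells was compared with marker lists. Among 13 proximal tubule markers, 10 were analysed and 4 passed the filter. PAX8, a transcription factor of the kidney lineage, was the highest, with 107 ± 26.8 FPKM in the control-labelled and 123 ± 31.8 FPKM in the knockdown-labelled libraries (SD, n = 3). GGT1, an enzyme of the brush border with related gene copies, was also expressed, at 63.8 to 69.8 and 60.4 to 80.3 FPKM. The transporters SLC34A1 and SLC5A2 passed the filter with at most 0.25 and 0.34 FPKM. The apical receptor CUBN, the water channel AQP1, ANPEP and HNF4A were each at or under 0.05 FPKM in every library. The list was therefore split, with PAX8 and GGT1 well expressed and these other 6 genes near 0. Of 5 epithelial markers, 4 passed the filter, and their summed FPKM of 667.8 to 967.9 and 806.1 to 992.7 in the control-labelled and knockdown-labelled libraries overlapped. CDH1 (E-cadherin), the epithelial marker that did not pass, had 0.01 to 0.11 FPKM. KRT8 was the highest, at 467 ± 88.8 and 515 ± 60.1 FPKM (SD, n = 3). KRT8 has pseudogene copies, and the handling of reads that match several places was not stated in the labels. Endothelial cells, adipocytes and muscle are known for dense caveolae. Their markers were at or near 0, with summed FPKM per library of at most 0.24 for the 4 endothelial genes analysed of 7 listed, 0.04 for 2 adipocyte genes of 4 and 0.13 for 4 muscle genes of 5. ERG and DES were the highest endothelial and muscle genes, at up to 0.2 and 0.13 FPKM, and the adipocyte genes PLIN1 and CIDEC reached 0.02 and 0.04 FPKM. For leukocytes, 2 of 5 markers were analysed, and CD14, the higher, reached 0.56 to 1.23 FPKM in the control-labelled and 0.92 to 1.71 FPKM in the knockdown-labelled libraries.

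A caveola is built in layers. Caveolins insert into the inner leaflet of the membrane and bind cholesterol. Cavins assemble on them from the cytosol and form the coat that bends the membrane. EHD proteins and PACSIN2 act at the neck of the pit. Flotillins belong to the stomatin and prohibitin family of membrane scaffold proteins and do not need caveolins for their domains. Annexin A2 binds acidic phospholipids at the inner face of the membrane.

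CAV1 and CAV2 are neighbours on the plus strand of chromosome 7. In GENCODE release 44 on GRCh38, CAV2 spans chr7:116287380-116508541 and CAV1 spans chr7:116524994-116561179. They are 16452 bases apart, and 0 other protein-coding genes start between them. EHD2 lies on the plus strand at chr19:47713422-47743134. The sequences before the starts of these 3 genes are shown because the caveolins share a locus but had unlike estimates, and because CAV2 and EHD2 were the members whose groups did not overlap. Each sequence is the 250 bases before the first start that RefSeq (GRCh38.p14) lists for the gene, written in the direction of transcription. Capitals mark the GC box, GGGCGG on either strand. The sequences cover chr7:116524759-116525008 for CAV1, chr7:116499488-116499737 for CAV2 and chr19:47713172-47713421 for EHD2. The annotations differ for CAV2, since its first RefSeq start lies inside the GENCODE span and the stretch shown is not the one before the GENCODE start. In GENCODE, 15 bases of the CAV1 stretch already lie in an exon, against 0 for the others.
CAV1: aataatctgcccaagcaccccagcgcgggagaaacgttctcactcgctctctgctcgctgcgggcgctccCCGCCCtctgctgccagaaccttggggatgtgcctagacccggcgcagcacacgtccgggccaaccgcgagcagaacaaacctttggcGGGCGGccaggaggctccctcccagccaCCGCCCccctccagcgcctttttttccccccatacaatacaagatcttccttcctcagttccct
CAV2: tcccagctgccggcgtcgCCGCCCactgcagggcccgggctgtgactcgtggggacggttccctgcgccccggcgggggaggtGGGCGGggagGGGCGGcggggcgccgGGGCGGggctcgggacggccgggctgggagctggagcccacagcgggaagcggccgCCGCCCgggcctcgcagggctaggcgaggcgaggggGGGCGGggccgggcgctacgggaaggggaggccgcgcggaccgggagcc
EHD2: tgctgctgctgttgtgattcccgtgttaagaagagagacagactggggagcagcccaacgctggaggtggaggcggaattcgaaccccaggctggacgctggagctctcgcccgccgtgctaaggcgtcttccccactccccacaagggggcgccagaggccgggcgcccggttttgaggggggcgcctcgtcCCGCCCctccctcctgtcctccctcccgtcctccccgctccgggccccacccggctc

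The stretch before CAV2 was the richest in G and C of these 3, at 83.2%, with 35 CpG pairs and 6 GC boxes. The CAV1 stretch had 63.6% G and C, 18 CpG pairs and 3 GC boxes. For EHD2 it was 69.6%, with 20 CpG pairs and 1 GC box. The median over all 35116 RefSeq stretches of the same length, those of chromosome 8 left out, was 58% with 11 CpG pairs. In all, 8 of the 10 genes were matched in RefSeq, with 17 starts. PTRF and PRKCDBP were not matched. A GC box was present before 10 of the 17 starts, which belong to 7 of the 8 genes, all but SDPR, and 42.6% of all stretches held it. Other motifs were searched on both strands in the same way. The TEAD motif GGAATG was present before 5 of the 17 starts, of PACSIN2 and SDPR (11.9% of all stretches), and the CCAAT motif before 2, of EHD1 and PACSIN2 (32%). The AP-1 motif TGANTCA was present before 1 start of FLOT2 (6.57%), and the TATAAA motif (10.7%) and the CArG box (1.16%) each before 1 start of EHD1. The E-box CACGTG was found before 0 of the 17 starts, against 6.34% of all stretches. Some of the 17 stretches overlap, such as those of PACSIN2 that start at 42959850, 42959832 and 42959807. Those of CAV1 that start at 116524759 and 116524786 overlap as well. A single match can thus count for several starts, and the 17 are not independent. No excess of a motif was tested. These are matches of letters and not binding sites.

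The levels of the 10 transcripts were compared per length, as the deposited FPKM. PTRF was the most abundant, with a mean over the 6 libraries of 135.8 FPKM, followed by FLOT1 with 110.3, EHD2 with 79.6, CAV1 with 65.1, FLOT2 with 49.9, PACSIN2 with 39, EHD1 with 35.5, CAV2 with 26.4, PRKCDBP with 16.4 and SDPR with 15.2 FPKM. PTRF ranked 438 and SDPR 3575 of the 26803 genes with an FPKM value, and ANXA2 ranked 73. The order was not resolved at every step. The ranges over the libraries were apart between FLOT1 and EHD2, between CAV1 and FLOT2, and between CAV2 and PRKCDBP. They overlapped for the other 6 neighbouring pairs. PTRF exceeded FLOT1, and EHD2 exceeded CAV1, in all 6 libraries, whereas PACSIN2 exceeded EHD1 in 3 of 6 and PRKCDBP exceeded SDPR in 4 of 6. Each FPKM rests on the gene length the submitters used, which the labels do not state.

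**Figure D1:**
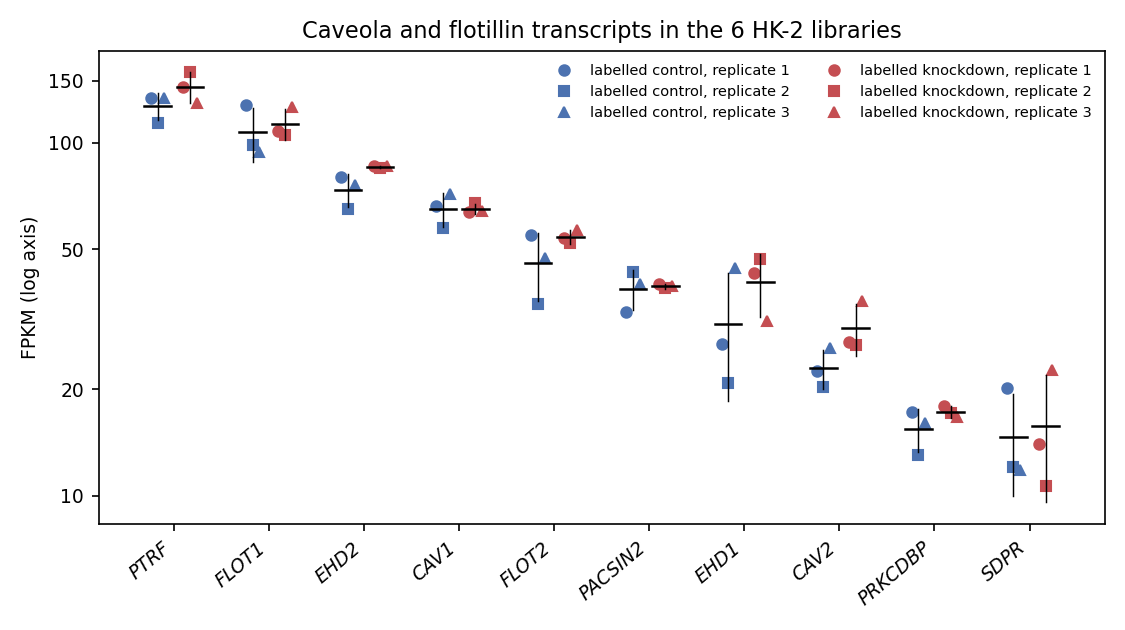
Deposited FPKM (log axis) of the 10 genes in each library. Points are libraries, coloured by label and shaped by replicate, horizontal bars are group means and vertical lines are SD (n = 3). PTRF sits highest and SDPR and PRKCDBP lowest, and the labels are fully apart for CAV2 and EHD2 alone.

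To identify members that differed between the labels, the counts of all 15299 tested genes were fitted together. By the edgeR quasi-likelihood test, 0 of 10 members had a Benjamini-Hochberg adjusted p under 0.05, where the share over all tested genes was 0.0% and the smallest adjusted p of any gene was 0.131. Before adjustment, 2 members had p under 0.05, CAV2 and EHD2, both with a higher estimate, against 8.18% of all tested genes (3.86% higher and 4.32% lower). DESeq2, limma-voom and limma on FPKM also called 0 members. The groups did not overlap for the same 2 members, which were higher in all 3 knockdown-labelled libraries, against 15.6% of all tested genes (7.94% higher and 7.7% lower). Estimates were above 0 for all 10 members, against 49% of all tested genes, and ran from 0.02 for CAV1 to 0.41 for EHD1. These 10 directions are not independent, since the members shared libraries and many varied together. Pearson r of their log2 scaled counts ran from -0.713 (FLOT1 and PACSIN2) to 0.959 (EHD2 and FLOT2). The members were also well expressed, at percentiles 86.7 (SDPR) to 98.4 (PTRF) by FPKM. Genes of like level were not compared. The median log2 fold change was 0.18 over the members and -0.006 over all tested genes. With library-size scaling the CAV1 estimate was -0.007. The pattern depended on single libraries. Without control replicate 2 the estimates of CAV1 (-0.07) and SDPR (-0.01) were below 0, the median was 0.11 and 0 members had an unadjusted p under 0.05. Without control replicate 1 the median was 0.29 with 4 such members and PACSIN2 was at -0.06. There was 1 such member without any 1 of the 3 knockdown replicates. The share of all tested genes at an unadjusted p under 0.05 was not counted in these fits. The 8.18% belongs to the fit of all libraries, so these member counts cannot be read against it.

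**Figure D2:**
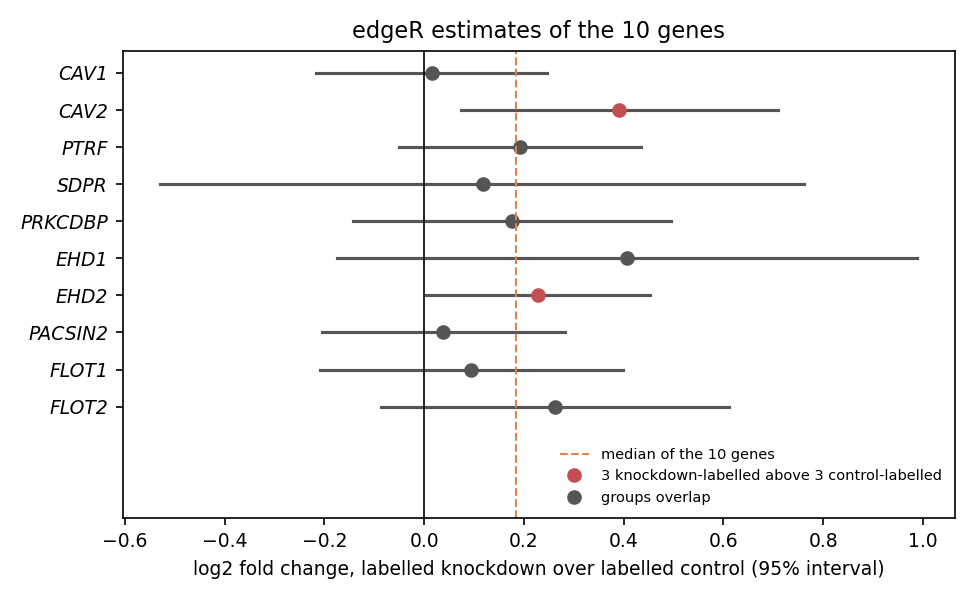
The edgeR log2 fold change of each gene, labelled knockdown over labelled control, with its 95% interval. The intervals of CAV2 (0.07 to 0.71) and EHD2 (0.004 to 0.45) lie above 0 before adjustment, and the other 8 include 0. The dashed line is the median of 0.18.

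The caveolins are the membrane proteins of the coat. CAV1, which is required for caveolae in most cells, had 66.2, 57.5 and 71.5 FPKM in the control-labelled libraries and 63.8, 67.5 and 64 FPKM in the knockdown-labelled libraries. All 3 knockdown values lay inside the range of the controls. The log2 fold change was 0.02 (SE 0.103, adjusted p = 0.975), with a 95% interval from -13.9% to 18.7%. CAV2, which forms hetero-oligomers with CAV1, had 22.5, 20.3 and 26.1 FPKM against 27.2, 26.7 and 35.7 FPKM. The lowest knockdown-labelled library was only just above the highest control, and knockdown replicate 3 stood well above the other two. The means were 23 ± 2.94 and 29.9 ± 5.06 FPKM (SD, n = 3). Its log2 fold change was 0.39 (SE 0.141), the interval ran from 5.17% to 63.4%, and the unadjusted and adjusted p of edgeR were 0.0213 and 0.602. An exact two-sided permutation test on scaled counts gave p = 0.1, the smallest that 3 against 3 libraries allow. Groups that do not overlap always give this value, so it adds nothing to the lack of overlap. Without knockdown replicate 3 the estimate was 0.25.

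Within each library, the FPKM of CAV2 was compared with that of CAV1. The ratio was 0.34, 0.354 and 0.366 in the control-labelled libraries and 0.427, 0.395 and 0.558 in the knockdown-labelled ones. The 3 controls lay close together at 0.353 ± 0.013, and the knockdown-labelled libraries lay above them at 0.46 ± 0.087 (SD, n = 3). The PTRF to CAV1 ratio was also apart, at 1.88 to 2.02 against 2.03 to 2.35, with a gap much smaller than the spread of either group. Both ratios share CAV1 as denominator. Ratios of SDPR to PTRF, PRKCDBP to PTRF, FLOT2 to FLOT1 and EHD2 to EHD1 overlapped between the labels. These ratios are given as a description, with no test.

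The cavins form the outer coat. PTRF (CAVIN1), without which caveolae do not form, had 133.7, 114.1 and 134.4 FPKM in the control-labelled libraries and 143.7, 158.7 and 129.9 FPKM in the knockdown-labelled libraries. Knockdown replicate 3 fell among the controls, so the groups overlapped. Its log2 fold change was 0.19 (SE 0.107, adjusted p = 0.641), with an interval from -3.39% to 35.1%. PRKCDBP (CAVIN3), first described as a binding partner of protein kinase C delta, had 17.3, 13 and 16.1 FPKM against 18, 17.2 and 16.7 FPKM. Control replicate 2 was the low library and control replicate 1 lay within the knockdown-labelled range. Its estimate was 0.18 (SE 0.141, adjusted p = 0.727). An antisense RNA of GENCODE covers 36.7% of the exonic bases of PRKCDBP, and whether strand was used in counting was not stated in the labels.

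SDPR (CAVIN2), a serum-responsive cavin that binds phosphatidylserine, varied most among the cavins. It had 20.2, 12.1 and 11.8 FPKM in the control-labelled libraries and 14, 10.7 and 22.7 FPKM in the knockdown-labelled libraries. The 2 high libraries, control replicate 1 and knockdown replicate 3, carried different labels. The highest scaled count was 2.1 times the lowest. Its estimate of 0.12 on the log2 scale had an SE of 0.287 (adjusted p = 0.922) and an interval from -30.7% to 69.6%. It was 0.42 without control replicate 1, 0.33 without knockdown replicate 2, -0.01 without control replicate 2 or 3 (-0.013 and -0.015) and -0.23 without knockdown replicate 3, so no direction was resolved for SDPR.

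EHD proteins are membrane-remodelling ATPases. EHD2, which holds caveolae at the cell surface, had 80.2, 65.1 and 75.9 FPKM in the control-labelled libraries and 85.9, 84.8 and 86 FPKM in the knockdown-labelled libraries. The knockdown-labelled values were almost equal and above every control. The means were 73.7 ± 7.79 and 85.5 ± 0.644 FPKM (SD, n = 3). For EHD2 the log2 fold change was 0.23 (SE 0.0997), with an interval from 0.275% to 36.9%, an unadjusted edgeR p of 0.0468 and an adjusted p of 0.608. The exact two-sided permutation test again gave p = 0.1, which the lack of overlap fixes. For the 8 members whose groups overlapped, it gave p from 0.3 to 0.9. Without control replicate 2 the estimate was 0.14 (adjusted p = 0.920).

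EHD1, a close relative known mainly for recycling of endosomes, had the largest estimate and the widest spread. Its values were 26.9, 20.9 and 44.2 FPKM in the control-labelled libraries and 42.9, 46.8 and 31.2 FPKM in the knockdown-labelled ones. Control replicate 3 was as high as knockdown replicates 1 and 2, so the groups overlapped. The log2 fold change of 0.41 had an SE of 0.258 (adjusted p = 0.679) and an interval from -11.4% to 98.4%. Omitting control replicate 3 gave 0.77, and omitting control replicate 2 gave 0.19. PACSIN2, an F-BAR protein that bends membrane at the neck, had 33.1, 43.1 and 39.8 FPKM against 39.9, 38.7 and 39.2 FPKM. The knockdown-labelled values lay within the range of the controls, and the estimate was 0.04 (SE 0.108, adjusted p = 0.934). In GENCODE, 3.4% of the exonic bases of PACSIN2 are shared with ARFGAP3 on the same strand.

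FLOT1 and FLOT2 form hetero-oligomers. FLOT1 had 128.5, 99 and 94.1 FPKM in the control-labelled libraries and 108.3, 105.3 and 126.6 FPKM in the knockdown-labelled libraries. Its 2 high libraries were control replicate 1 and knockdown replicate 3, as for SDPR. Its log2 fold change was 0.09 (SE 0.135, adjusted p = 0.851), with an interval from -13.5% to 31.8%. FLOT2 had 54.8, 34.9 and 47 FPKM against 53.9, 51.9 and 56.7 FPKM. Control replicate 2 stood far below the other libraries and control replicate 1 was among the knockdown-labelled values. The estimate was 0.26 (SE 0.155, adjusted p = 0.656), and it was 0.10 with control replicate 2 left out and 0.42 with control replicate 1 left out.

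The libraries were then compared across members. Each log2 CPM value, a count corrected for depth with TMM scaling, was set against the mean of its gene over the 6 libraries. Control replicate 2 was the lowest library for 7 of the 10 members, whereas it was the lowest for 25.5% of all tested genes. A low value there was not particular to the members. Among genes of the other lists, its FPKM was the lowest for FLNA (351.72), KRT8 (365.54), AP2M1 (463.24) and FOLR1 (21.39). It was the highest for CD59 (143.37) and CLTC (41.3). The median deviation of control replicate 2 was -0.30 over the members and 0.009 over all tested genes. The median deviation over the members was 0.03 and -0.02 in control replicates 1 and 3, and 0.09, 0.08 and 0.07 in knockdown replicates 1, 2 and 3. EHD1 (-0.73), FLOT2 (-0.52) and CAV2 (-0.38) were furthest below their means in control replicate 2, and PACSIN2 (0.13) was the member above its mean there. The members also differed in how steady they were. The SD of log2 CPM over the 6 libraries was 0.113 for CAV1 and 0.12 for PACSIN2, at percentiles 13.1 and 14.9 of all tested genes, and 0.447 for SDPR and 0.477 for EHD1, at percentiles 78.2 and 80.4. In 7 of 10 members the control-labelled libraries were the more scattered group, as they were for 61.5% of all tested genes.

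**Figure D3:**
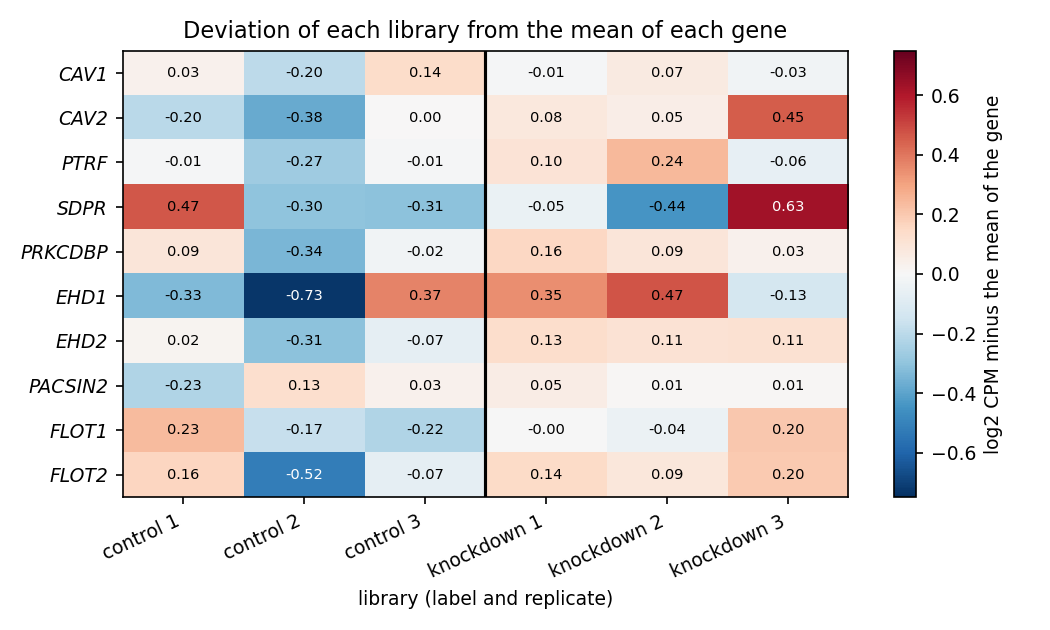
Deviation of log2 CPM from the mean of each gene (rows) in each library (columns, with a line between the labels). Control replicate 2 is below the mean of every gene except PACSIN2. SDPR and FLOT1 are high in control replicate 1 and knockdown replicate 3, and EHD1 is high in control replicate 3 and knockdown replicates 1 and 2.

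The genes whose log2 CPM was most like that of CAV1 over the 6 libraries were named among 8915 genes with a mean of at least 10 CPM. They were DUSP7 (Pearson r = 0.995), PRKCD (0.983) and C11orf49 (0.974). DUSP7, a phosphatase of MAP kinases, had 33.2, 26.1 and 35.6 CPM in the control-labelled and 31.2, 34.2 and 30.6 CPM in the knockdown-labelled libraries. Like CAV1, it was lowest in control replicate 2 and highest in control replicate 3. These values share libraries and scaling, the genes were picked as the closest of many, and no test was made.

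Genes related to caveolae, flotillins or cholesterol-rich membrane by family or function, and genes of the clathrin coat, were counted from lists. Not all of their proteins sit in these membrane domains, such as the mitochondrial PHB2 and STOML2. Among 13 further genes linked to caveolae, 11 were tested and 0 passed the adjusted threshold by edgeR, while 2 (EHD3 and DNM1) were higher and 0 lower at an unadjusted p under 0.05, against 3.86% and 4.32% of all tested genes. The same 2 did not overlap between the labels, and PACSIN3 was lower without overlap, at 9.2 to 9.5 against 6.9 to 8.97 FPKM. Over all tested genes 7.94% were higher and 7.7% lower without overlap. These shares, and the 3.86% and 4.32% at an unadjusted p under 0.05, also apply to the lists that follow. DNM1, PACSIN3 and the genes named below only for not overlapping were singled out after their values were seen. DESeq2 and limma-voom called 0 genes of this list and of the next 3 lists. The median log2 fold change was 0.09. EHD3, another EHD protein, had low values of 0.44, 0.39 and 0.56 FPKM against 0.61, 0.78 and 0.91 FPKM, which did not overlap (log2 fold change 0.74, SE 0.271, adjusted p = 0.605). FYN, a Src family kinase, was as low, at 0.37 ± 0.19 and 0.23 ± 0.121 FPKM (SD, n = 3; log2 fold change -0.65, adjusted p = 0.732). The actin cross-linker FLNA, which ties caveolae to the cytoskeleton, reached 431 ± 76 and 479.6 ± 21 FPKM (SD, n = 3), and the dynamin DNM2 reached 53.8 ± 6.98 and 55.7 ± 3.75 FPKM. Their groups overlapped.

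For the stomatin and prohibitin family with flotillin partners, 11 of 13 genes were tested, and 0 passed the adjusted threshold or an unadjusted p of 0.05 by edgeR. Without the low-count filter edgeR called 1, STOML1, and 165 of 26899 genes in all. STOML1 had 1.27, 2.36 and 2.73 FPKM in the control-labelled libraries and 3.74, 4.74 and 1.76 FPKM in the knockdown-labelled ones. Knockdown replicate 3 lay inside the range of the controls, so its groups overlapped. The median of the list was 0.02. The most abundant were the mitochondrial proteins PHB2, with 195.8 ± 8.86 and 197.2 ± 20 FPKM, and STOML2, with 129.9 ± 13.2 and 143.9 ± 14.7 FPKM (SD, n = 3). STOML1 and MAL had the largest estimates, 0.71 (SE 0.363, adjusted p = 0.631) and 0.49 (SE 0.504, adjusted p = 0.796). MAL, a raft proteolipid of apical sorting, had 15.6, 2.37 and 8.03 FPKM in the control-labelled libraries, and control replicate 2 was again the lowest.

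Proteins with a glycolipid (GPI) anchor sit in the outer leaflet of the same cholesterol-rich membrane. Of 12 such genes, all tested, 0 passed the adjusted threshold by edgeR, 1 (GPC1) was higher and 1 (PRNP) lower at an unadjusted p under 0.05, and the median was -0.11. Groups did not overlap for 3 genes, PRNP, CD109 and TFPI, all lower, and for 0 higher genes. PRNP, the prion protein, had 39.7, 48.1 and 42.6 FPKM against 35, 37.1 and 37.6 FPKM (log2 fold change -0.23, adjusted p = 0.605). CD59, a complement inhibitor, was the highest, at 117.8 ± 26.9 and 102.8 ± 14.5 FPKM, followed by the folate receptor FOLR1 at 35.9 ± 13 and 45.7 ± 0.924 FPKM (SD, n = 3). EFNA1 and THY1 had the largest estimates, 0.52 (SE 0.345, adjusted p = 0.686) and -0.44 (SE 0.414, adjusted p = 0.768). Both overlapped between the labels. EFNA1 had 12.5, 10.8 and 19.9 FPKM in the control-labelled and 22, 28.6 and 10.5 FPKM in the knockdown-labelled libraries. THY1 was low, at 0.23 to 0.69 and 0.29 to 0.38 FPKM.

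The clathrin coat is the other main coat of endocytic pits. All 14 of its listed genes were tested. By edgeR 0 passed the adjusted threshold, 1 (CLTA) was higher and 0 were lower at an unadjusted p under 0.05, and the median was 0.07. The adaptor subunit AP2M1 was the most abundant, at 509.9 ± 49.2 and 552.3 ± 20.1 FPKM. The clathrin light chains CLTA, at 213.5 ± 14 and 242.9 ± 15.7 FPKM, and CLTB, at 44.2 ± 2.89 and 50.6 ± 1.55 FPKM (SD, n = 3), did not overlap between the labels and had estimates of 0.20 and 0.21 (adjusted p = 0.608 and 0.615). The adaptor subunit AP2A1 was lower without overlap, by a small margin, at 21.2 to 21.5 against 20.2 to 20.5 FPKM (log2 fold change -0.06, adjusted p = 0.866). The heavy chain CLTC had an estimate of -0.24 (SE 0.114, adjusted p = 0.615) with overlapping groups.

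**Figure D4:**
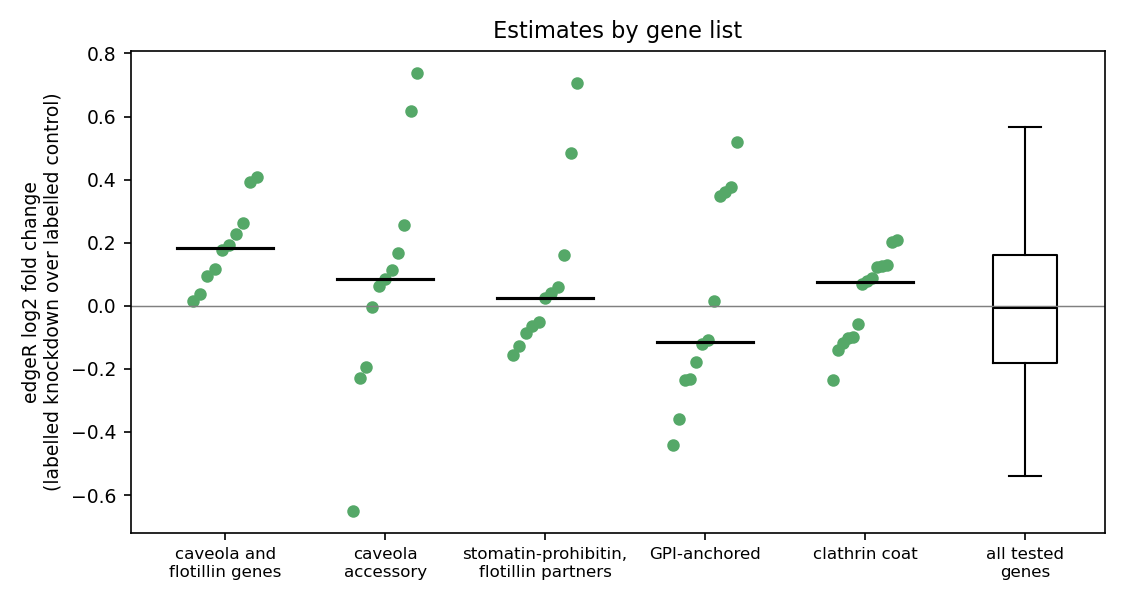
The edgeR log2 fold changes by gene list, with 1 point per tested gene and a bar at the median of each list. The box shows all 15299 tested genes (median and quartiles, whiskers at the 5th and 95th percentiles of -0.54 and 0.57), and the caveola and flotillin points lie between 0.02 and 0.41.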

How the data were processed

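HK-2 RNA was sequenced in 6 libraries, grouped by their titles. The authors deposited raw read counts for 26899 genes and FPKM values for 26803 genes, rounded to 2 decimals. The submitters' processing notes name bcl2fastq, TopHat2, edgeR and the build GRCh38, without versions. Not given in the sources used here were the counting program, the annotation and the treatment of strand. The deposited FPKM of the 2556 genes above 20 in all libraries equalled the counts times 1 constant per gene and 1 per library, with a residual SD of at most 0.000286 on the log2 scale, so FPKM adds no independent measurement. Pairs of replicates differed beyond sampling noise, with a chi-square per degree of freedom of 10.3 to 54.2.

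Counts were tested with edgeR 4.0.16 in R 4.3.3 (quasi-likelihood, TMM scaling, default filter with a minimum count of 10, a two-sided test, and Benjamini-Hochberg adjustment over 15299 genes with a threshold of 0.05). The script was tested on simulated data. Alternatives used limma 3.58.1, DESeq2 1.42.0, other scalings, FPKM with a pseudocount of 1 or 0.1, a replicate block and the omission of each library. Locations are from GENCODE 44 on GRCh38. The members and gene lists were chosen with earlier results of these data known. Named were ANXA2, all members, the 2 largest estimates and the 2 highest FPKM of each related list, the highest gene of each marker list and the 3 genes most like CAV1. Other marker genes, and the list genes said to be singled out, were named after their values were seen. Counts of reads carry counting error that is small here (563 to 21439 reads per member and library), so the spread between libraries sets the precision.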

Additional observations from a re-analysis of the deposited data

How the results depend on the processing

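Members past the adjusted threshold numbered 0 under all 16 alternatives. Of 160 member estimates, 153 stayed on the same side of 0 and of the threshold, 0 newly passed it, and 7 changed sign, in 3 members. CAV1 went to -0.00699 with library-size scaling, to -0.0716 and -0.011 when control replicate 2 or knockdown replicate 2 was omitted, and reached 0.0915 at most (control replicate 3 omitted). SDPR went to -0.013 and -0.015 without control replicate 2 and 3, -0.23 when knockdown replicate 3 was omitted, and 0.421 at most (control replicate 1 omitted). PACSIN2 spanned -0.055 (without control replicate 1) to 0.117 (without control replicate 2). The cause was not tested.

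Genes past the adjusted threshold were 0 of 15299 by edgeR (1251 at an unadjusted p under 0.05). They were 165 of 26899 without the low-count filter and 32 with DESeq2. With 1 library left out they were 0 to 4, with 4 without knockdown replicate 2. Members at an unadjusted p under 0.05, 2 by edgeR, were 4 without the filter, 1 with DESeq2, 1 with library-size scaling, and 0 to 4 when 1 library was left out. The matching share of all tested genes was not counted under the alternatives. The median over members stayed between 0.11 and 0.29, and the ANXA2 estimate between -0.11 and -0.02.

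Replicate numbers are shared by the groups, and the labels do not say whether they pair the libraries. Deviations of same-numbered libraries correlated at -0.06, 0.12 and -0.20. No reference from libraries of different number was computed, so these values cannot settle whether the numbers are pairs. With the replicate block 0 genes and 0 members passed, 2 members had an unadjusted p under 0.05 and the median was 0.19. With 3 libraries per label, the spread between libraries, estimated partly from other genes, set the width of the intervals given.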
